A study of Mus musculus with 48 samples.

Results

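10 signaling genes of the TGF-beta superfamily were followed through the developing and adult mouse pancreas. They comprised the TGF-beta ligands Tgfb1, Tgfb2 and Tgfb3, the bone morphogenetic protein (BMP) and growth differentiation factor genes Bmp2, Bmp4, Bmp7 and Gdf3, the activin subunit genes Inhba and Inhbb, and Fst, which encodes the activin antagonist follistatin. These 10 genes were chosen by name among the 18194 genes that have at least 1 probe carrying that gene alone on the Affymetrix mouse array, and each gene was read from whichever of its probes averaged highest across all 48 arrays. All 10 were found, and all 10 passed the filter of more than 100 on the linear scale (6.64 on the log2 scale) in at least 1 array. They are covered by 20 probes in all, and Tgfb3, Bmp2 and Bmp4 have 1 probe each.

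The study sorted 13 pancreatic cell populations by flow cytometry, with 3 to 5 arrays each. The label of every array gives a CD-1 background, and the genotype label is wild type for 44 arrays of 12 populations. E15.5 Neurog3-null cells (n = 4) were GFP+ cells of embryos with eGFP knocked into both Neurog3 alleles, so that this regulator of endocrine fate is lost. Their titles read E1.5, while their stage label reads E15.5. E15.5 endocrine progenitors (n = 3), acinar cells (n = 3) and E15.5 progenitors (n = 3) were sorted with antibodies to CD133, CD24 and CD49f from embryos carrying a Neurog3-eGFP transgene. E11.5 progenitors (n = 4) came from dorsal pancreata of Sox9-eGFP embryos, whose long-lived eGFP also marks some progeny that no longer make Sox9. Beta cells were sorted from mice with GFP under the mouse insulin promoter at E15.5 (n = 4), E17.5 (n = 3), P0 (n = 3), P15 (n = 4) and 8-12 wk (n = 4, here called adult). Alpha cells were sorted from Glucagon-Venus mice at 8-12 wk (n = 5) and P0 (n = 4). Per the methods, E15.5 and E17.5 beta cells were released with trypsin and P0 beta and alpha cells with collagenase, then dispase. P15 and adult pancreata were digested with collagenase, and their replicates came from male mice. Dissociation thus changed with stage and cannot be told apart from it. Duct cells were CD133+ cells of wild-type adults at 8-12 wk (n = 4). Animals were pooled within a sample throughout, and the methods give P1 where the labels give P0. Because each array reads a pool of sorted cells, fewer cells of a type and less RNA per cell cannot be told apart.

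Ligands of this superfamily are secreted dimers that assemble type I and type II receptor kinases, which phosphorylate Smad transcription factors. TGF-betas and activins act mainly through Smad2 and Smad3, whereas BMPs act mainly through Smad1, Smad5 and Smad9, and both branches share Smad4. In the pancreas the family is known for its part in branching, in the balance between exocrine and endocrine fates and in islet function.

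For 5 of the 10 genes the RefSeq promoter table (GRCm38.p6) holds a window around a transcript start. The 250 bases before that start are shown for Tgfb1, Tgfb2 and Bmp4, because the profiles of these genes across the populations set the TGF-beta ligands, and a BMP, apart from one another. The Tgfb1 stretch is chr7:25686752-25687001 on the plus strand. The Tgfb2 stretch is chr1:186705990-186706239 and the Bmp4 stretch is chr14:46390670-46390919, both on the minus strand. Capitals mark every match, on either strand, to GGGCGG (the GC box) or TATAAA (the TATA box). CAGCTG (an E-box), TGANTCA (the AP-1 site) and GTCTAGAC (the Smad box) were searched on both strands too and had no match in these stretches.
Tgfb1: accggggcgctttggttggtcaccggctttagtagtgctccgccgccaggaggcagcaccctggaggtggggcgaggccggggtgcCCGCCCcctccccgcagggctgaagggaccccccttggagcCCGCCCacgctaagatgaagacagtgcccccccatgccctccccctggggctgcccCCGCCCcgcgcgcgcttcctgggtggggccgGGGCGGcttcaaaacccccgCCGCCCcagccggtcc
Tgfb2: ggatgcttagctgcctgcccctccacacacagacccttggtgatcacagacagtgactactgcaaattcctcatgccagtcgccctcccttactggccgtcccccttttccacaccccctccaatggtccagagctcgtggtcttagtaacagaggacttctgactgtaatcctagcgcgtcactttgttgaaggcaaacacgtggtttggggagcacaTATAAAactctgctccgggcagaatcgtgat
Bmp4: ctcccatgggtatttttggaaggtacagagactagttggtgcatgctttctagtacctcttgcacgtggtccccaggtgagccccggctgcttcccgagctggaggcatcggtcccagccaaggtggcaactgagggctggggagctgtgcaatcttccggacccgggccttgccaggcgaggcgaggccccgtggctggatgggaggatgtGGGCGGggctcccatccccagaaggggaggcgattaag
The Tgfb1 stretch held 5 GC boxes and was 75.2% G or C. The Bmp4 stretch held 1 GC box and was 63.2% G or C, while the Tgfb2 stretch held a TATA box, no GC box, and 53.6% G or C. Over 32851 promoter windows of the same length, 32.7% held a GC box, 12.4% a TATA box, 6.75% the AP-1 site and 0.167% the Smad box, while 4271 windows held the E-box. These matches describe letters only. The Tgfb2 window stands before a transcript start that lies within the gene's RefSeq span.

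The arrays had medians of 6.58 to 6.88 on the log2 scale, and pairs of arrays correlated at 0.807 to 0.997. Neurog3 itself averaged 10.57 in the Neurog3-null cells and 13.40 in endocrine progenitors, and whether its probe lies in the replaced part of the gene was not known. Cell-type markers were summarized as the mean log2 level of each list. The 15 macrophage and leukocyte markers averaged 11.75 in duct cells, 11.34 in adult beta cells, 11.29 in Neurog3-null cells and 10.01 in P0 beta cells, against 5.82 in adult alpha cells and 6.06 in endocrine progenitors. Ptprc, which encodes the CD45 antigen used to gate out leukocytes, averaged 10.59 in duct cells, 10.66 in Neurog3-null cells and 10.24 in adult beta cells, against 3.74 in adult alpha cells and 3.48 in endocrine progenitors. The 11 mesenchymal markers averaged 12.26 in P0 beta cells, 11.71 in E17.5 beta cells and 10.96 in P0 alpha cells, against 6.29 in P15 beta cells. The 9 endothelial markers averaged 10.83 in P0 beta cells, 10.06 in E17.5 beta cells, 9.40 in P0 alpha cells and 9.11 in acinar cells, and stayed at or below 6.91 in the other 9 populations. The 5 acinar markers reached 14.44 in duct cells and 14.01 in adult beta cells. The defining hormones marked their labelled cells but not those alone, since Gcg averaged 14.09 in adult beta cells and Ins2 averaged 13.91 in adult alpha cells. The paper states that such very abundant hormone mRNAs can saturate array probes, and it measured both by quantitative PCR in sorted adult alpha and beta cells. These values therefore do not measure how many other islet cells a sample held.

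**Figure D1:**
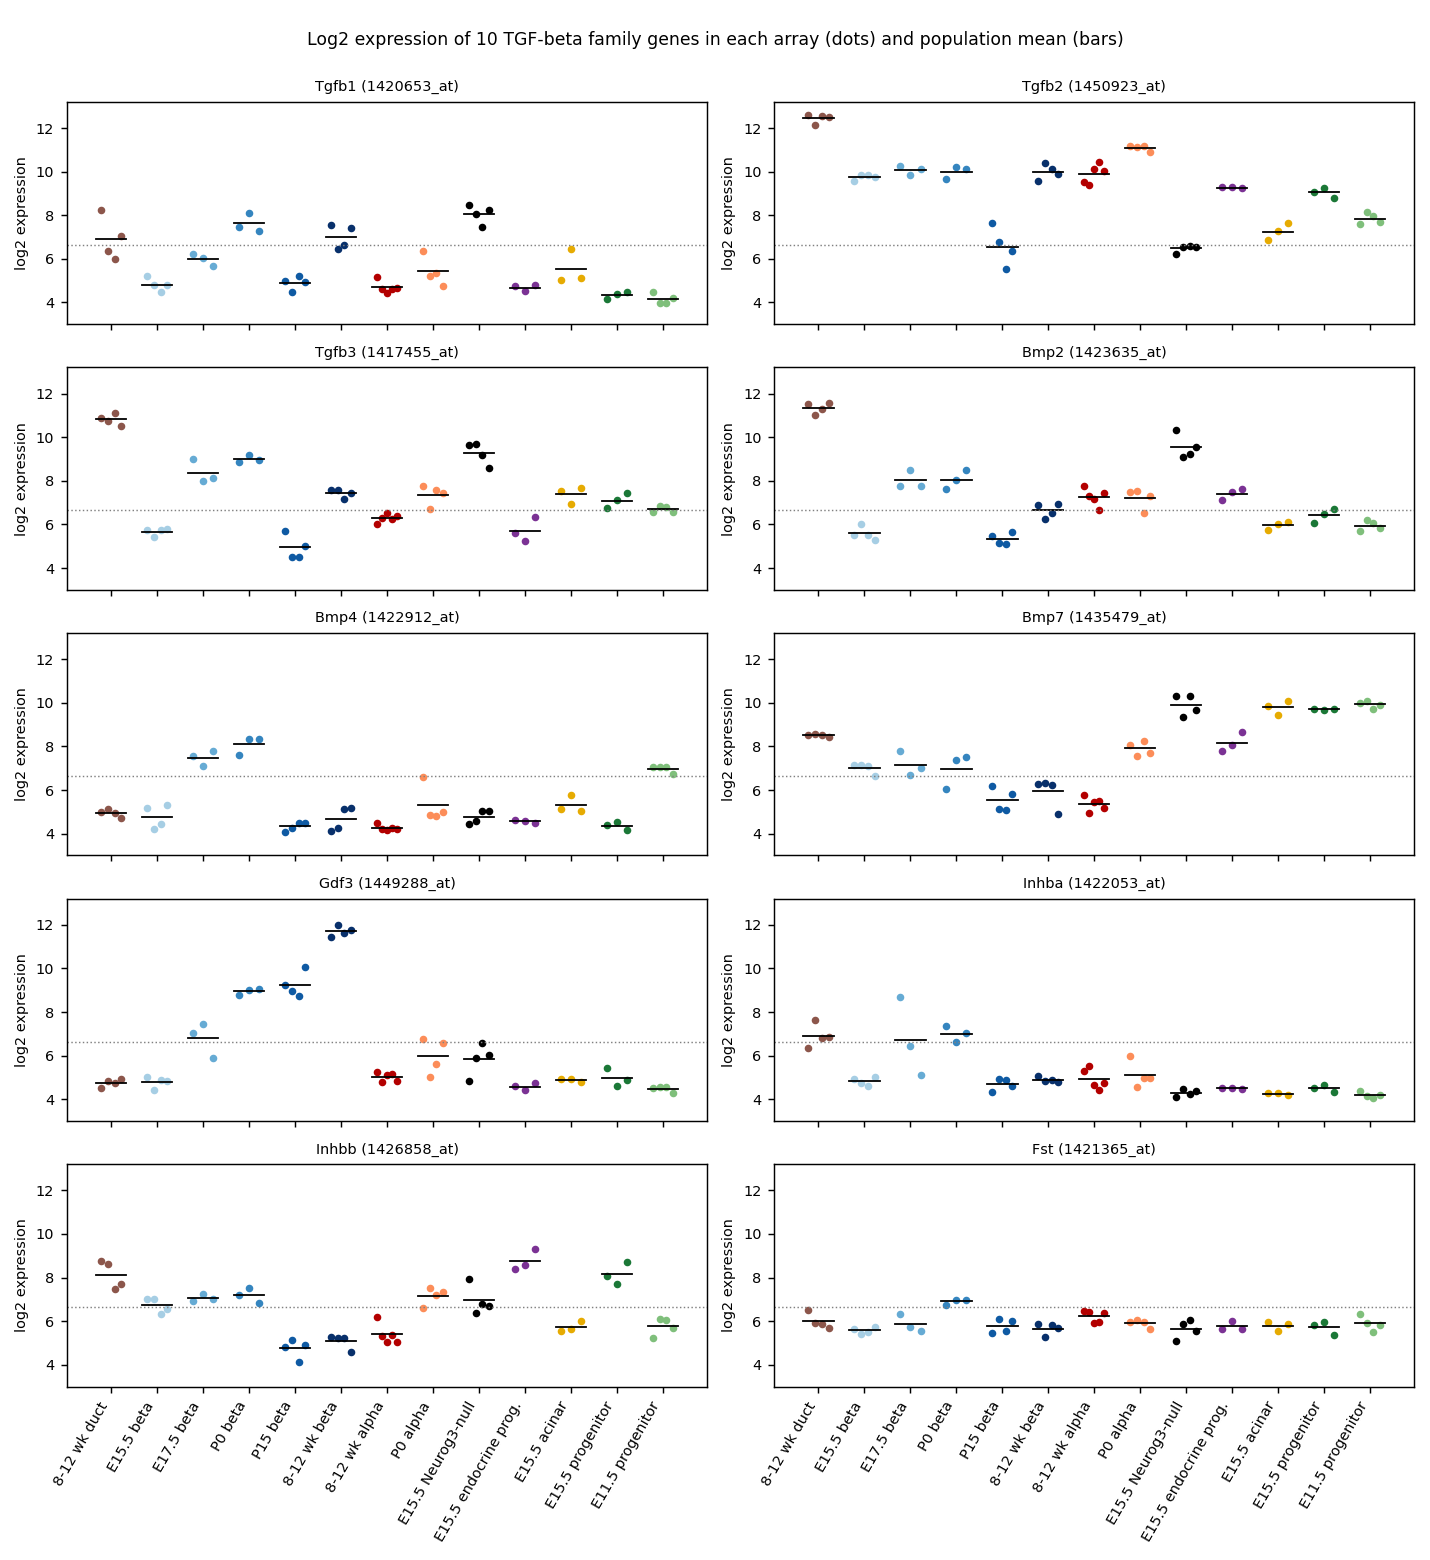
Log2 expression (y axis) of the 10 genes in each of the 48 arrays (dots) of the 13 populations (x axis), with population means as bars and 100 on the linear scale (6.64) as the dotted line. Gdf3 climbed along the beta cell stages to a mean of 11.71 in adult beta cells, and Tgfb2, Tgfb3 and Bmp2 each had their highest mean in duct cells.

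Tgfb1, Tgfb2 and Tgfb3 encode the 3 TGF-beta ligands, which are secreted in latent complexes and released outside the cell. Their profiles differed in these populations. Tgfb2 (chr1:186622787-186709697) was the most widely detected of the 10 genes, above 100 in 42 of the 48 arrays, while Tgfb3 (chr12:86056743-86079041) exceeded 100 in 30 arrays and Tgfb1 (chr7:25687002-25705077) in 11 arrays. All coordinates are those of GRCm38.p6.

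Tgfb2 was highest in duct cells, with log2 values of 12.58, 12.13, 12.55 and 12.49, against 9.58, 10.41, 10.11 and 9.90 in adult beta cells. P0 alpha cells followed, at 11.16, 11.13, 11.18 and 10.91. No array of the other populations reached the lowest duct value. With this probe, the one of the highest mean, the P0 alpha arrays lay above those of every remaining population. With another Tgfb2 probe the P0 alpha arrays (8.47 to 8.90) overlapped those of P0 beta cells (8.49 to 8.88). The duct cells exceeded adult beta cells by 2.44 ± 0.25 on the log2 scale (5.42-fold, standard error of the limma fit, adjusted p = 7.6e-11) and E15.5 progenitors by 3.39 ± 0.27 (adjusted p = 1.2e-13). At the low end, Neurog3-null cells had 6.23, 6.55, 6.60 and 6.56, against 9.28, 9.28 and 9.24 in endocrine progenitors. Tgfb2 was 6.88-fold lower in the Neurog3-null cells (-2.78 ± 0.27, adjusted p = 3.6e-11), with no overlap between the arrays. Acinar cells had 6.88, 7.26 and 7.62, against 9.06, 9.27 and 8.81 in E15.5 progenitors, a difference of -1.79 ± 0.29 (adjusted p = 9.9e-06). The E15.5 progenitors in turn stood above E11.5 progenitors, at 7.58, 8.14, 7.96 and 7.68, by 1.21 ± 0.27 (adjusted p = 0.00073).

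With the probe of the highest mean, Tgfb2 kept to a narrow band along the beta cell stages except at P15. In log2 units its arrays read 9.57 to 9.87 at E15.5, 9.85 to 10.28 at E17.5, 9.67 to 10.19 at P0, 5.51 to 7.63 at P15 and 9.58 to 10.41 in adults. The P15 arrays read 7.63, 6.77, 5.51 and 6.35 and none reached an array of another beta cell stage. P15 was thus lower than P0 (-3.44 ± 0.27, 10.8-fold, adjusted p = 1.4e-13), and adult beta cells were higher than P15 beta cells by 3.43 ± 0.25 (10.8-fold, adjusted p = 1.5e-13). In alpha cells the adults (9.54, 9.40, 10.14, 10.43 and 10.02) lay below P0 (-1.19 ± 0.24, adjusted p = 6.4e-05). At P0, beta cells were lower than alpha cells (-1.10 ± 0.27, adjusted p = 0.0011), which is past the 2-fold limit only with P0 beta replicate 1 (-0.93 without it). The other 3 Tgfb2 probes gave no call there, at -0.73, -0.10 and 0.11, and with the mean over the probes the difference was -0.45 (adjusted p = 0.076). Adult beta and adult alpha cells overlapped, with a difference of 0.10 ± 0.24 (adjusted p = 0.77). The other 3 Tgfb2 probes also had their highest array in duct cells, at 10.55 to 11.66 over the duct arrays and at most 9.69 in any other array. Along the beta cell stages these 3 probes were lowest at P15 too. Their means were 8.64, 8.74 and 8.44 at P0 and 8.10, 8.44 and 7.12 in adult beta cells.

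Tgfb3 was high in duct cells (10.90, 10.74, 11.11 and 10.52), against 7.58, 7.60, 7.15 and 7.42 in adult beta cells, and the difference was 3.38 ± 0.26 (10.4-fold, adjusted p = 1.9e-14). It was likewise high in Neurog3-null cells (9.63, 9.68, 9.17 and 8.61), against 5.59, 5.23 and 6.32 in endocrine progenitors. This difference, 3.56 ± 0.28 (11.8-fold, adjusted p = 8.7e-14), was the largest among the 10 genes in that comparison. Endocrine progenitors lay below E15.5 progenitors (6.75, 7.11 and 7.42; -1.38 ± 0.30, adjusted p = 0.00024). In the methods' t-test this last difference missed the threshold (adjusted p = 0.058).

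In beta cells Tgfb3 rose and fell with stage. The means were 5.67 at E15.5, 8.37 at E17.5, 8.99 at P0, 4.94 at P15 and 7.44 in adults. The P0 arrays (8.85, 9.17 and 8.97) all exceeded the E15.5 arrays (5.74, 5.41, 5.76 and 5.77), by 3.32 ± 0.28 on the log2 scale (adjusted p = 2.5e-12). The P15 arrays read 5.69, 4.53, 4.53 and 5.03, below P0 (-4.05 ± 0.28, 16.6-fold, adjusted p = 2.7e-15), and adult arrays stood above P15 by 2.50 ± 0.26 (adjusted p = 7.3e-10). Adult alpha cells (median 6.28, highest 6.54) were lower than P0 alpha cells (7.78, 6.69, 7.57 and 7.43; -1.07 ± 0.24, adjusted p = 0.00032), and the difference was -0.94 without P0 alpha replicate 1. Beta cells exceeded alpha cells at P0 by 1.63 ± 0.28 (adjusted p = 8.2e-06) and in adults by 1.15 ± 0.24 (adjusted p = 0.00018).

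Tgfb1, the ligand best known from immune and stromal cells, was near the low end of the scale in most populations. It exceeded 100 in all 4 Neurog3-null arrays (8.46, 8.04, 7.48 and 8.23) and in no endocrine progenitor array (4.73, 4.52 and 4.79). The difference was 3.38 ± 0.37 (10.4-fold, adjusted p = 5.7e-10). P0 beta cells had 7.47, 8.11 and 7.30, against 5.20, 4.78, 4.50 and 4.80 at E15.5, a difference of 2.81 ± 0.37 (7.01-fold, adjusted p = 8.5e-08). P15 beta cells (4.99, 4.47, 5.23 and 4.93) were lower than P0 (-2.72 ± 0.37, adjusted p = 8.3e-08), and adult beta cells (7.55, 6.45, 6.62 and 7.41) were higher than P15 by 2.10 ± 0.34 (adjusted p = 9.3e-06). Adult beta cells also exceeded adult alpha cells, at 5.16, 4.61, 4.44, 4.61 and 4.68, by 2.30 ± 0.32 (adjusted p = 2.0e-07). The duct arrays were spread, at 8.25, 6.35, 5.99 and 7.06, and overlapped adult beta cells (difference -0.09 ± 0.34, adjusted p = 0.84). In acinar cells (5.02, 6.43 and 5.11) Tgfb1 passed the test against E15.5 progenitors (4.18, 4.38 and 4.46), by 1.18 ± 0.39 (adjusted p = 0.028), but all these arrays were below 100 and the call was lost without acinar replicate 2 (0.73, adjusted p = 0.27), without any 1 of the 3 E15.5 progenitor arrays (adjusted p = 0.055 to 0.096) and with the mean over both probes (0.58, adjusted p = 0.15). The second Tgfb1 probe stayed below 100 in all 48 arrays.

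The macrophage and leukocyte list was high in the populations with high Tgfb1. Over single arrays its 15 markers averaged 10.90 to 11.74 in Neurog3-null cells and 5.93 to 6.13 in endocrine progenitors, with 14 of the 15 above 100 in every null array and 3 to 6 above 100 in the endocrine progenitor arrays. In beta cells it averaged 7.45 at E15.5, 8.78 at E17.5, 10.01 at P0, 7.72 at P15 and 11.34 in adults, and Tgfb1 averaged 4.82, 5.98, 7.63, 4.91 and 7.01 at the same stages. Its part in the differences of Tgfb1, Tgfb2, Tgfb3, Bmp2, Gdf3 and Inhba between these populations was not tested. For Tgfb2 the list and the gene moved in opposite directions between Neurog3-null cells and endocrine progenitors.

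**Figure D2:**
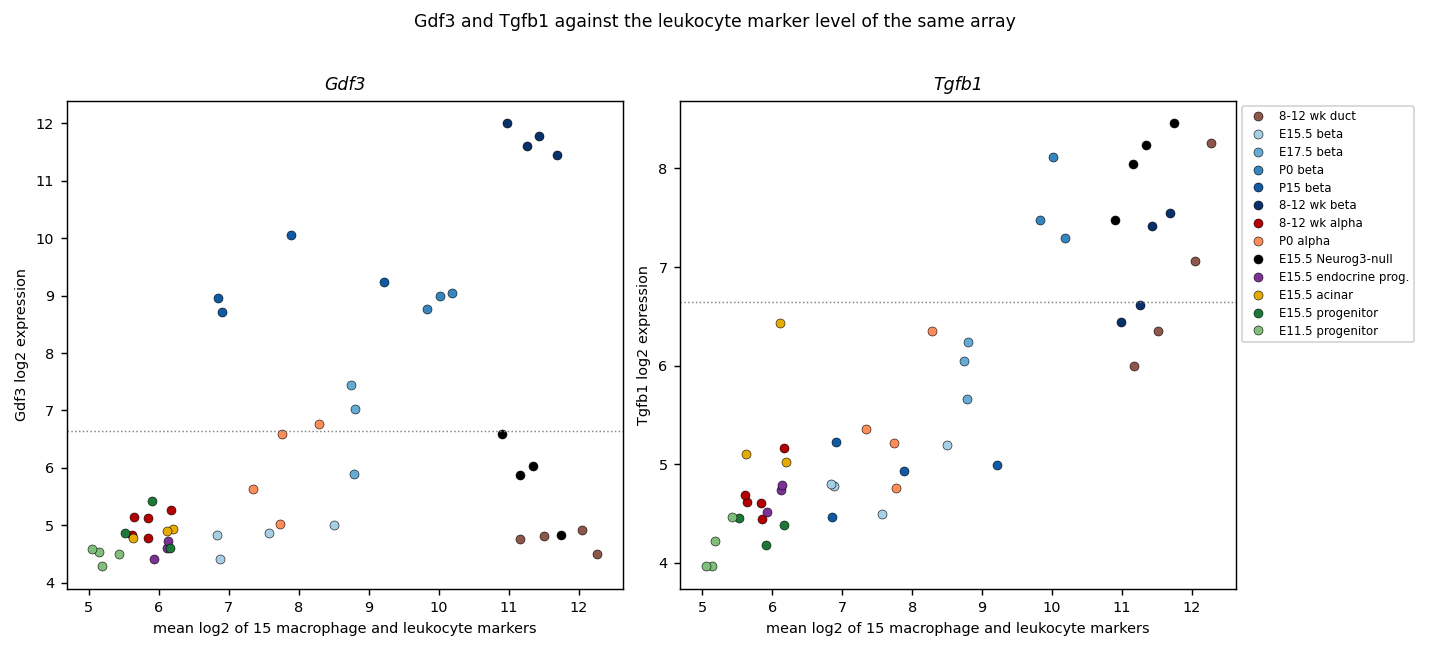
Log2 expression of Gdf3 (left) and Tgfb1 (right) on the y axis against the mean log2 level of the 15 macrophage and leukocyte markers of the same array on the x axis, 1 dot per array, colored by population, with 100 on the linear scale as the dotted line. Tgfb1 exceeded 100 in 11 arrays, all of them of Neurog3-null, duct, P0 beta and adult beta cells. Gdf3 was at 4.50 to 4.91 in duct cells and at 11.45 to 12.01 in adult beta cells. The marker level averaged 11.75 in duct and 11.34 in adult beta cells, and its part was not tested.

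Gdf3 encodes a BMP-related ligand, known for its roles in early embryos and adipose tissue, that signals through activin-type receptors. It had the widest range of the 10 genes, from 4.29 to 12.01, and its highest means were in the sorted adult, P15 and P0 beta cell populations. The beta cell arrays read 5.01, 4.41, 4.87 and 4.83 at E15.5, then 7.03, 7.45 and 5.90 at E17.5, then 8.77, 9.00 and 9.05 at P0. They read 9.24, 8.95, 8.71 and 10.05 at P15 and 11.45, 12.01, 11.61 and 11.78 in adults. Every adult array exceeded every P15 array, while P15 and P0 overlapped. Gdf3 (chr6:122605403-122610087) was higher at P0 than at E15.5 by 4.16 ± 0.33 (17.9-fold, adjusted p = 9.4e-13), and higher in adult than in P15 beta cells by 2.47 ± 0.31 (5.55-fold, adjusted p = 5.4e-08). The P15 and P0 means differed by 0.30 ± 0.33 (adjusted p = 0.47).

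In adult alpha cells Gdf3 read 5.27, 4.78, 5.12, 5.15 and 4.83, so adult beta cells were 103-fold higher (6.68 ± 0.29, adjusted p = 9.2e-21). In duct cells it read 4.50, 4.82, 4.77 and 4.91, below adult beta cells (-6.96 ± 0.31, 125-fold, adjusted p = 1.2e-21). Because the values in duct and alpha cells were under 100, the size of these folds is not exact. The macrophage and leukocyte markers averaged 11.17 to 12.27 over the duct arrays and 10.98 to 11.69 over the adult beta arrays. Their part in the Gdf3 differences was not tested. At P0 beta cells exceeded alpha cells (6.76, 5.03, 5.63 and 6.58) by 2.94 ± 0.33 (adjusted p = 4.4e-09). Neurog3-null cells had 4.84, 5.87, 6.59 and 6.03, against 4.60, 4.41 and 4.74 in endocrine progenitors. This difference passed the test (1.25 ± 0.33, adjusted p = 0.0016), although all 7 arrays were under 100, and it was 1.00 without Neurog3-null replicate 3, just under the 2-fold limit. The second Gdf3 probe also reached its highest values in adult beta cells (8.14, 8.38, 7.82 and 8.26) and stayed under 100 in every other population.

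Bmp2, Bmp4 and Bmp7 encode BMP ligands, which direct cell fate and branching in many epithelia. Bmp2 (chr2:133552159-133562896) was highest in duct cells, at 11.52, 11.03, 11.31 and 11.55, against 6.89, 6.23, 6.54 and 6.92 in adult beta cells. The difference was 4.71 ± 0.25 (26.1-fold, adjusted p = 3.1e-19), and against E15.5 progenitors (6.09, 6.46 and 6.69) it was 4.94 ± 0.27 (30.7-fold, adjusted p = 2.2e-18). Neurog3-null cells came next, with 10.35, 9.11, 9.23 and 9.53, against 7.12, 7.47 and 7.61 in endocrine progenitors (2.16 ± 0.27, 4.46-fold, adjusted p = 1.1e-08). These 2 populations lay above all others without overlap. E15.5 beta cells (5.53, 6.01, 5.53 and 5.31) were lower than endocrine progenitors (-1.80 ± 0.27, adjusted p = 2.2e-06).

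Bmp2 then followed the up and down course of Tgfb1 and Tgfb3 in beta cells. P0 beta cells (7.61, 8.05 and 8.51) were higher than E15.5 beta cells by 2.46 ± 0.27 (adjusted p = 1.5e-09), P15 beta cells (5.49, 5.13, 5.12 and 5.66) were lower than P0 (-2.71 ± 0.27, adjusted p = 6.0e-11), and adult beta cells exceeded P15 by 1.30 ± 0.25 (adjusted p = 0.00013). In alpha cells the adults (7.75, 7.32, 7.17, 6.66 and 7.45) overlapped P0 (7.48, 7.51, 6.53 and 7.28), with a difference of 0.07 ± 0.24 (adjusted p = 0.82). The change from P0 to adult, set against that in beta cells, was 1.48 ± 0.36 higher in alpha cells (adjusted p = 0.0013).

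Bmp4 (chr14:46383525-46390669) exceeded 100 in 10 arrays, all of which belonged to E11.5 progenitors, E17.5 beta cells and P0 beta cells. E15.5 progenitors had 4.39, 4.52 and 4.18, against 7.06, 7.06, 7.03 and 6.75 in E11.5 progenitors, so Bmp4 was lower (-2.61 ± 0.30, 6.11-fold, adjusted p = 4.6e-09). In beta cells it read 5.17, 4.20, 4.44 and 5.33 at E15.5, 7.55, 7.12 and 7.79 at E17.5, and 7.62, 8.35 and 8.34 at P0. The P15 arrays were back at 4.07, 4.25, 4.50 and 4.49. P0 exceeded E15.5 by 3.32 ± 0.30 (9.97-fold, adjusted p = 1.4e-11), and P15 was below P0 (-3.77 ± 0.30, 13.7-fold, adjusted p = 1.2e-13). P0 beta cells were 2.79 ± 0.30 above P0 alpha cells (adjusted p = 1.1e-09). The adult alpha cells (4.47, 4.21, 4.16, 4.24 and 4.21) passed the test against P0 alpha cells by -1.05 ± 0.26 (adjusted p = 0.00085), but that difference was -0.63 without P0 alpha replicate 1, which read 6.58 where the other P0 alpha arrays read 4.82 to 4.98.

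The mesenchymal and endothelial lists were highest in the beta cell arrays with high Bmp4. The mesenchymal list averaged 9.79 at E15.5, 11.71 at E17.5, 12.26 at P0, 6.29 at P15 and 7.68 in adult beta cells, and all 11 markers exceeded 100 in each P0 beta array. The endothelial list averaged 6.52 at E15.5, 10.06 at E17.5, 10.83 at P0, 6.02 at P15 and 5.89 in adults. In E11.5 progenitors, where Bmp4 was above 100, the endothelial list averaged 4.99 and the mesenchymal list 7.32, against 5.25 and 7.03 in E15.5 progenitors. In P0 alpha cells 3 of the 4 arrays had Bmp4 at 4.82 to 4.98 with the mesenchymal list at 10.56 to 10.99 and the endothelial list at 8.88 to 9.36, and replicate 1, with Bmp4 at 6.58, had the highest level of both lists (11.51 and 10.39). The part of these lists in the differences of Bmp4, Tgfb3, Inhba and Fst was not tested.

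Bmp7 (chr2:172868012-172940321) was highest in Neurog3-null, acinar and progenitor cells. It read 10.31, 9.36, 10.29 and 9.68 in Neurog3-null cells, 9.88, 9.44 and 10.06 in acinar cells, 9.72, 9.69 and 9.70 in E15.5 progenitors and 9.73 to 10.09 over the E11.5 progenitor arrays. With the probe of the highest mean, these 4 populations overlapped as neighbors and stood above the 9 others. Endocrine progenitors (7.80, 8.08 and 8.64) were lower than E15.5 progenitors (-1.53 ± 0.34, 2.89-fold, adjusted p = 0.00040), and Neurog3-null cells were higher than endocrine progenitors by 1.74 ± 0.32 (3.33-fold, adjusted p = 1.6e-05). The acinar list averaged 13.21 in Neurog3-null cells, 10.88 in endocrine progenitors and 12.57 in E15.5 progenitors. Endocrine progenitor replicate 3 had the highest acinar level of its group (12.20, others 9.87 and 10.56) as well as the highest Bmp7, and the part of this list was not tested. The duct arrays (8.52, 8.58, 8.52 and 8.45) were 2.59 ± 0.30 above adult beta cells (6.28, 6.34, 6.22 and 4.90, adjusted p = 1.0e-09) and lay below E15.5 progenitors (-1.18 ± 0.32, adjusted p = 0.0017). P15 beta cells (6.17, 5.12, 5.10 and 5.84) were lower than P0 beta cells (6.03, 7.40 and 7.49; -1.42 ± 0.32, adjusted p = 0.00033), although the arrays overlapped and the methods' t-test gave an adjusted p of 0.087.

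The Bmp7 probes disagreed in alpha cells. With the probe of the highest mean, adult alpha cells read 5.79, 4.95, 5.46, 5.51 and 5.17, against 8.06, 7.57, 8.27 and 7.72 at P0, a difference of -2.53 ± 0.28 (adjusted p = 1.1e-09). A second probe read 5.54, 5.61, 4.53, 4.13 and 5.06 in adult alpha cells, against 6.04, 4.95, 4.82 and 5.22 at P0, a difference of -0.28 (adjusted p = 0.50), and the third probe was under 100 in all 9 of these arrays. No direction of Bmp7 in alpha cells is therefore given. For the embryonic comparisons the second probe also had Neurog3-null cells (9.99, 10.60, 10.54 and 10.73) above endocrine progenitors (6.85, 7.02 and 8.53). It read 10.65 to 11.04 in acinar cells and 9.85 to 10.07 in E15.5 progenitors, without overlap (0.91, adjusted p = 0.12). The third probe did not overlap there either, at 9.04 to 9.29 and 7.99 to 8.49 (0.92, adjusted p = 0.0098). Both differences were under 2-fold. For E15.5 beta cells against endocrine progenitors the difference was -1.16 ± 0.32 with the first probe (adjusted p = 0.0064) and -0.53 with the second (adjusted p = 0.37), and that of the first probe was -0.93 without endocrine progenitor replicate 3 (adjusted p = 0.070).

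**Figure D3:**
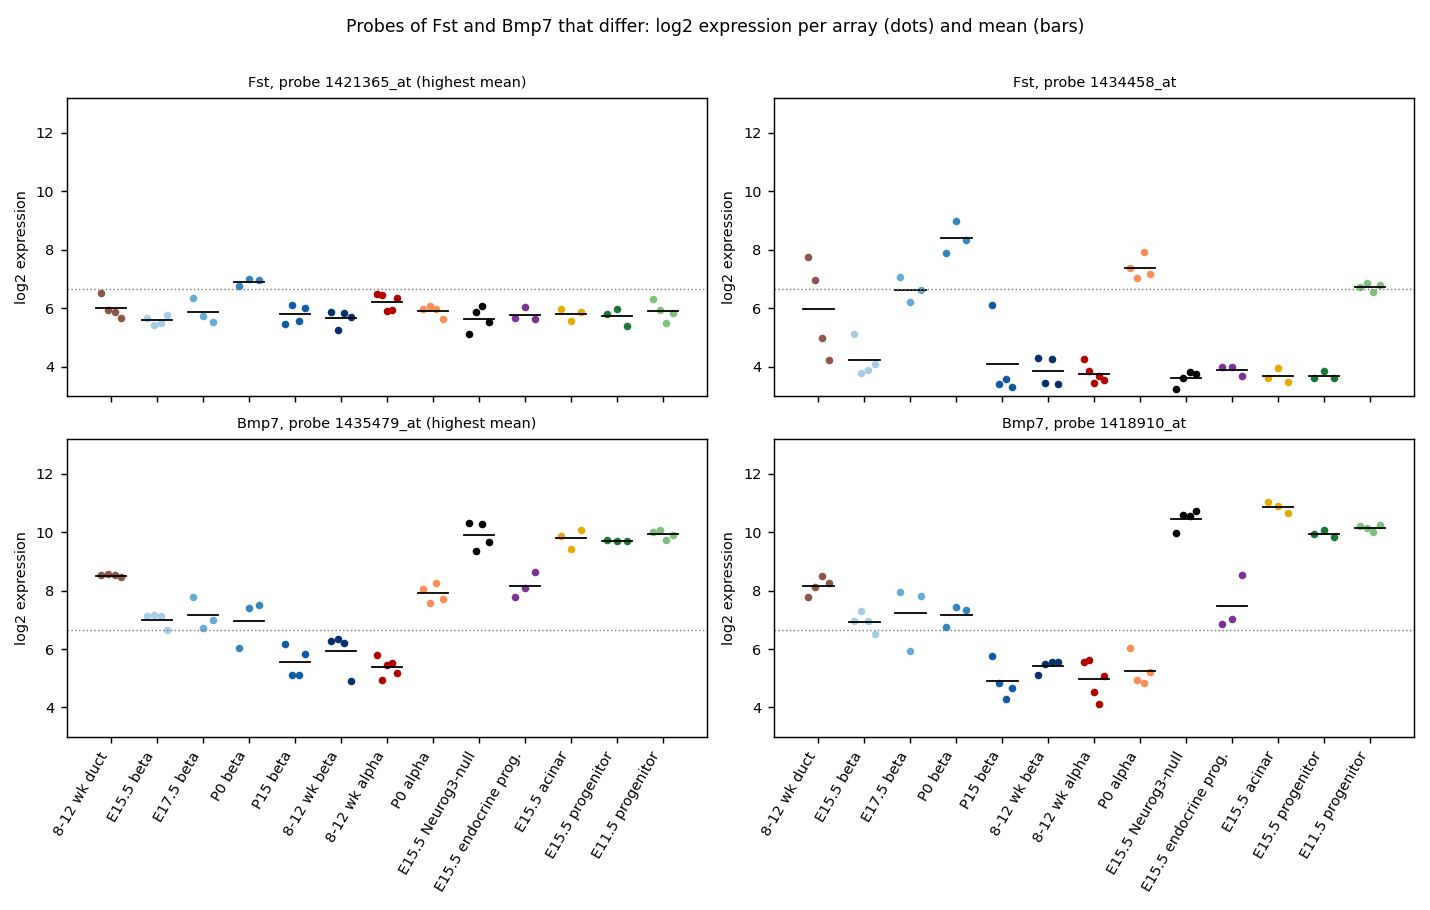
Log2 expression (y axis) per array (dots) and population mean (bars) of 2 probes each of Fst (top) and Bmp7 (bottom) over the 13 populations (x axis), with 100 on the linear scale as the dotted line. The left Bmp7 probe reads 7.57 to 8.27 in P0 alpha cells where the right one reads 4.82 to 6.04, and the right Fst probe reads up to 8.98 where the left one reads at most 6.99.

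Inhba and Inhbb encode the beta A and beta B subunits that pair into activins. Inhbb (chr1:119415463-119422248) was highest in endocrine progenitors (8.41, 8.59 and 9.32), E15.5 progenitors (8.07, 7.70 and 8.74) and duct cells (8.78, 8.62, 7.46 and 7.69), which overlapped. E15.5 progenitors exceeded E11.5 progenitors (5.24, 6.12, 6.07 and 5.70) by 2.39 ± 0.33 (5.23-fold, adjusted p = 4.5e-07), and acinar cells (5.54, 5.66 and 6.03) were lower than E15.5 progenitors (-2.43 ± 0.36, 5.37-fold, adjusted p = 2.1e-06). Inhbb exceeded 100 in every array of E15.5 progenitors and endocrine progenitors and in no acinar array. It was lower in Neurog3-null cells (7.95, 6.40, 6.80 and 6.69) than in endocrine progenitors (-1.81 ± 0.33, adjusted p = 1.7e-05), and lower in E15.5 beta cells (7.01, 7.02, 6.34 and 6.55) than in endocrine progenitors (-2.04 ± 0.33, adjusted p = 1.1e-05).

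In islet cells Inhbb exceeded 100 in all P0 beta arrays and in 3 of the 4 P0 alpha arrays, and in no P15 or adult islet array. P15 beta cells (4.84, 5.15, 4.13 and 4.93) were lower than P0 beta cells (7.18, 7.51 and 6.86; -2.42 ± 0.33, 5.36-fold, adjusted p = 1.3e-07), and adult alpha cells (6.18, 5.31, 5.06, 5.39 and 5.06) were lower than P0 alpha cells (6.62, 7.51, 7.22 and 7.34; -1.77 ± 0.29, 3.42-fold, adjusted p = 3.7e-06). The change from P0 to adult did not pass the test of a difference between alpha and beta cells (0.33 ± 0.45, adjusted p = 0.60). Adult duct cells exceeded adult beta cells (5.26, 5.25, 5.22 and 4.60) by 3.05 ± 0.31 (8.31-fold, adjusted p = 5.3e-11). The second Inhbb probe was under 100 in all 48 arrays.

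Inhba (chr13:16004256-16031609) exceeded 100 in only 6 arrays. P0 beta cells read 7.34, 6.61 and 7.02, against 4.93, 4.76, 4.59 and 5.01 at E15.5, a difference of 2.17 ± 0.40 (4.49-fold, adjusted p = 3.3e-05). The E17.5 arrays were far apart, at 8.67, 6.42 and 5.10. P15 beta cells (4.35, 4.92, 4.89 and 4.59) were lower than P0 (-2.30 ± 0.40, 4.94-fold, adjusted p = 7.3e-06), and P0 beta cells were above P0 alpha cells (5.98, 4.58, 4.98 and 4.95) by 1.87 ± 0.40 (adjusted p = 0.00018). Duct cells (6.36, 7.63, 6.80 and 6.85) exceeded adult beta cells (5.09, 4.83, 4.87 and 4.81) by 2.01 ± 0.37 (adjusted p = 1.1e-05). In the embryonic progenitor, acinar and Neurog3-null populations every Inhba array lay between 4.04 and 4.63. The second Inhba probe stayed under 100 in all arrays.

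Fst (chr13:114452262-114458989) depended on the probe. The probe with the highest mean varied little, from 5.11 to 6.99, and exceeded 100 in 3 arrays, all of P0 beta cells (6.75, 6.99 and 6.97). With it, P0 beta cells exceeded E15.5 beta cells (5.65, 5.42, 5.49 and 5.75) by 1.33 ± 0.22 (adjusted p = 9.2e-06), and P15 beta cells (5.45, 6.10, 5.57 and 6.01) were lower than P0 (-1.12 ± 0.22, adjusted p = 6.9e-05). The other probe ranged from 3.24 to 8.98 and exceeded 100 in 13 arrays. It read 7.89, 8.98 and 8.33 in P0 beta cells, against 5.10, 3.79, 3.88 and 4.10 in E15.5 beta cells (4.18 ± 0.52, adjusted p = 3.1e-08). It also read 3.60, 3.86 and 3.60 in E15.5 progenitors, against 6.72, 6.88, 6.54 and 6.79 in E11.5 progenitors (-3.04 ± 0.52, adjusted p = 1.7e-05), where the first probe showed a difference of -0.17 ± 0.22 (adjusted p = 0.64). In adult alpha cells it read 4.26, 3.83, 3.44, 3.67 and 3.54, against 7.37, 7.03, 7.93 and 7.19 in P0 alpha cells (-3.63 ± 0.46, adjusted p = 1.9e-08), while the first probe had 0.31 ± 0.20 (adjusted p = 0.19). Both probes were highest in P0 beta cells, whereas the values of the second alone did not overlap between the progenitor stages or the alpha cell stages.

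The comparisons below share arrays, since all were fitted in a single model over the 48 arrays. A gene was called where its adjusted p over the 32078 probes that passed the filter was under 0.05 and the difference was at least 2-fold. For each comparison the count among the 10 genes is set beside the percentage of all probes called. That percentage, like the median over all probes, takes in every probe past the filter, also several of the same gene. Each of the 10 genes was read from its probe of the highest mean only, so the sets are not alike. The other genes of the pathway were grouped as 6 other ligands, 7 type I receptors, 5 type II receptors, 5 coreceptors, 7 Smads, 15 secreted antagonists and binding proteins and 12 response genes that passed the filter. For each comparison the counts of called genes in these groups are given, with the largest differences of some.

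**Figure D4:**
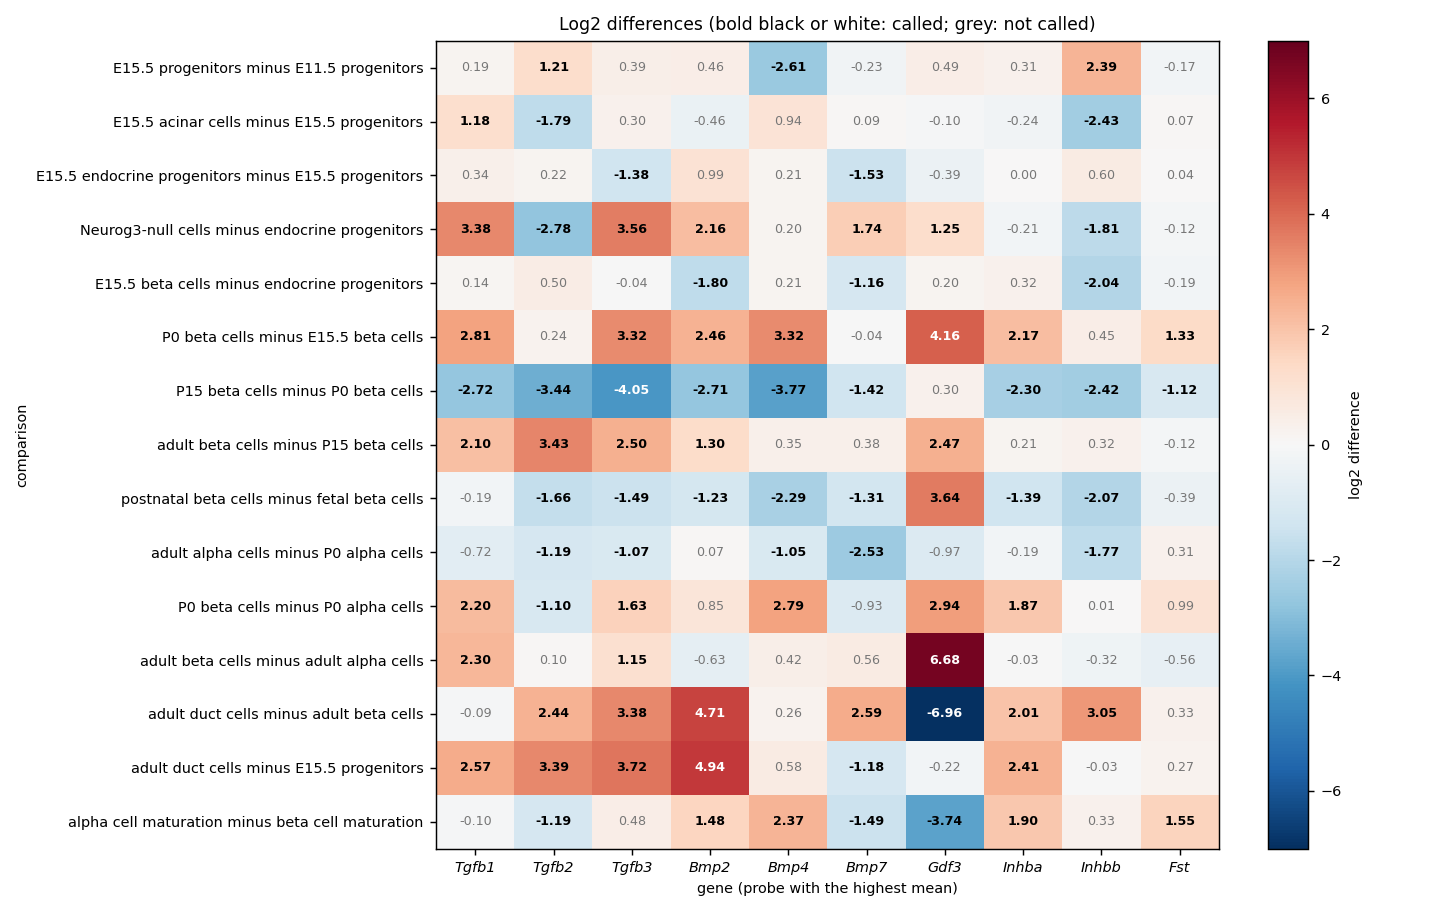
Log2 differences of the 10 genes (columns) in the 15 comparisons (rows), blue for lower and red for higher in the population named first, with called differences in bold. The row of P15 against P0 beta cells holds 9 lower values and 1 uncalled value (Gdf3, 0.30), and the row of P0 against E15.5 beta cells holds 7 called values, all higher.

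Between progenitor stages, 3 of the 10 genes were called, Tgfb2 and Inhbb higher and Bmp4 lower at E15.5 than at E11.5, where 11.3% of all probes were called. Their median absolute difference was 0.43, against 0.33 over all probes. Marker lists of other cells differed too, with the acinar list at 12.57 in E15.5 and 9.20 in E11.5 progenitors, the alpha cell list at 7.86 and 11.64 and the beta cell list at 8.96 and 10.85, and their part was not tested. Of the receptors, Acvr2b (a type II receptor for activins and BMPs) was lower at E15.5 (8.75, against 10.51 at E11.5; -1.76 ± 0.23, adjusted p = 9.5e-08) and Tgfbr2 (the type II receptor for TGF-beta) was higher by 1.46 ± 0.40 (adjusted p = 0.0058). Of 15 antagonists 4 rose and none fell, led by Chrdl1, a BMP antagonist (2.68 ± 0.37, adjusted p = 3.5e-07). Of 12 response genes 1 rose and 2 fell, among them Id3, a BMP target (-1.59 ± 0.32, adjusted p = 0.00021). None of the 7 Smads was called. Higher too were 1 of 6 other ligands and 1 of 7 type I receptors, and 1 of 5 coreceptors was lower.

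In acinar cells against E15.5 progenitors 3 of the 10 genes were called (Tgfb1 higher, Tgfb2 and Inhbb lower), where 9.90% of all probes were called, and the median absolute differences were 0.38 and 0.29. Bmp4 had an adjusted p of 0.030 but stayed under 2-fold (0.94 ± 0.32). Of 7 type I receptors 3 were higher in acinar cells and of 15 antagonists 2 were higher and 5 lower. Acvrl1 (2.36 ± 0.34, adjusted p = 1.6e-06) and the coreceptor Eng (2.56 ± 0.30, adjusted p = 3.1e-08) are genes of endothelial cells, and the endothelial list averaged 9.11 in acinar cells and 5.25 in E15.5 progenitors. Its part in these differences was not tested. Acvr1c, a type I receptor for activin B and related ligands, was higher by 1.91 ± 0.31 (adjusted p = 9.1e-06). No type II receptor or Smad was called, 1 of 6 other ligands was lower, and 1 of 5 coreceptors and 1 of 12 response genes were called in each direction.

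In endocrine progenitors against E15.5 progenitors 2 of the 10 genes were called, Tgfb3 and Bmp7, both lower, where 19.2% of all probes were called. The median absolute difference was 0.36 for the 10 genes and 0.42 over all probes. Bmp2 was just under 2-fold (0.99 ± 0.29, adjusted p = 0.0058). Of 7 Smads 2 fell, Smad3 (10.19, against 12.27; -2.08 ± 0.19, adjusted p = 7.3e-12) and the inhibitory Smad6 (-2.12 ± 0.31, adjusted p = 4.3e-07), and of 12 response genes 5 fell and none rose. They included Id3 (-2.20 ± 0.35, adjusted p = 2.0e-06), Id1 (-1.64 ± 0.37, adjusted p = 0.00039) and Tgif1, a Smad corepressor (-2.59 ± 0.35, adjusted p = 1.0e-07). Of 15 antagonists 3 rose and 3 fell, with Cer1, which encodes a secreted BMP and Nodal antagonist, changed most (3.93 ± 0.30, adjusted p = 8.6e-14). Of 7 type I receptors 2 rose, 1 of 6 other ligands and 1 of 5 type II receptors fell, and of 5 coreceptors 1 rose and 1 fell.

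In Neurog3-null cells against endocrine progenitors 7 of the 10 genes were called, 5 higher (Tgfb1, Tgfb3, Bmp2, Bmp7 and Gdf3) and 2 lower (Tgfb2 and Inhbb), where 31.1% of all probes were called. Their median absolute difference was 1.78, against 0.61 over all probes. Of 7 type I receptors 4 fell, with Bmpr1a at -1.78 ± 0.31 (adjusted p = 6.3e-06), Acvr1c at -1.50 ± 0.29 (adjusted p = 2.8e-05) and Tgfbr1 at -1.23 ± 0.14 (adjusted p = 2.5e-09), while Tgfbr2 rose by 2.43 ± 0.40 (adjusted p = 3.0e-06). Smad3 was higher in the null cells (12.48, against 10.19; 2.29 ± 0.17, adjusted p = 4.7e-14). Of 15 antagonists 2 rose and 6 fell, with Cer1 at 4.48 in the null cells and 9.90 in endocrine progenitors (-5.43 ± 0.28, adjusted p = 5.5e-19). Of 12 response genes 2 rose, and Tgfbi, a TGF-beta induced matrix gene that macrophages also express, rose most (5.01 ± 0.52, adjusted p = 1.5e-10). Of 7 Smads 2 rose and 1 fell, of 5 coreceptors 3 rose and 1 fell, of 5 type II receptors 1 rose and 1 fell, and 1 of 6 other ligands rose. The 15 macrophage and leukocyte markers averaged 11.29 in the null cells and 6.06 in endocrine progenitors, and the part of this list in the Tgfbr2 and Tgfbi differences was not tested.

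In E15.5 beta cells against endocrine progenitors 3 of the 10 genes were called, all lower (Bmp2, Bmp7 and Inhbb), where 9.43% of all probes were called. Over the 10 genes the median absolute difference was 0.27, against 0.30 over all probes. Acvr1c was the 1 type I receptor called, at 11.51 in beta cells and 8.76 in endocrine progenitors (2.75 ± 0.29, adjusted p = 1.3e-09). Cer1 was lower in beta cells (-2.42 ± 0.28, adjusted p = 1.4e-08). No type II receptor, Smad or other ligand was called. Of 5 coreceptors 2 were higher, of 15 antagonists 1 was higher and 2 lower, and of 12 response genes 1 was higher and 2 lower.

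In P0 against E15.5 beta cells 7 of the 10 genes were called, all higher, where 17.1% of all probes were called. Their median absolute difference of 2.31 compared with 0.41 over all probes. Tgfb2, Bmp7 and Inhbb were not called, at 0.24, -0.04 and 0.45. Of 15 antagonists and binding proteins 9 rose and 1 fell, with Ltbp4 (4.15 ± 0.31, adjusted p = 2.0e-13), Dcn (3.25 ± 0.45, adjusted p = 2.6e-07) and Fstl1 (2.87 ± 0.44, adjusted p = 1.7e-06) among them. Ltbp4 encodes a latent TGF-beta binding protein, and Dcn and Fstl1 are typical genes of mesenchyme. Gdf10 (4.27 ± 0.36, adjusted p = 2.8e-12), Acvrl1 (4.22 ± 0.32, adjusted p = 3.3e-13) and Eng (4.01 ± 0.28, adjusted p = 4.5e-14) rose too, as did 5 of 12 response genes. Also higher were 2 of 6 other ligands, 3 of 5 coreceptors and 2 of 7 Smads, while 1 type I and 1 type II receptor rose and 1 of each fell. The mesenchymal list averaged 12.26 at P0 and 9.79 at E15.5, and the endothelial list 10.83 and 6.52. Their part in these differences was not tested.

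In P15 against P0 beta cells 9 of the 10 genes were called, all lower, where 25.5% of all probes were called. Gdf3 was the exception. Their median absolute difference was 2.56, against 0.54 over all probes. Of 15 antagonists 8 fell and none rose, and of 12 response genes 7 fell and none rose. Dcn (5.45 at P15, against 13.53 at P0; -8.08 ± 0.45, adjusted p = 9.0e-18), Fstl1 (-7.63 ± 0.44, adjusted p = 2.1e-17) and Tgfbr2 (-6.07 ± 0.40, adjusted p = 1.1e-15) fell most in their groups. Id3 (-4.16 ± 0.32, adjusted p = 8.9e-14) and Smad6 (-2.83 ± 0.29, adjusted p = 9.5e-11) fell as well. Inha, which encodes the alpha subunit that turns activin subunits into inhibins, rose by 1.12 ± 0.18 (adjusted p = 3.7e-06). Of 6 other ligands 1 rose and 2 fell, of 7 type I receptors 1 rose and 1 fell, and 1 of 5 type II receptors, 3 of 5 coreceptors and 2 of 7 Smads fell. At P15 the mesenchymal list averaged 6.29, with 3 to 8 of 11 markers above 100 per array, and the endothelial list 6.02. The part of these lists was not tested.

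In adult against P15 beta cells 5 of the 10 genes were called, all higher (Tgfb1, Tgfb2, Tgfb3, Bmp2 and Gdf3), where 7.81% of all probes were called. Their median absolute difference was 0.84, against 0.26 over all probes. The called pathway genes were also higher, with 4 of 15 antagonists, 3 of 12 response genes, 1 of 6 other ligands, 1 of 7 type I receptors, 1 of 5 type II receptors, 1 of 7 Smads and no coreceptor. They included Tgfbi (11.90, against 7.47; 4.42 ± 0.48, adjusted p = 2.3e-09), Pmepa1, a Smad-induced feedback inhibitor (1.83 ± 0.23, adjusted p = 7.2e-08), Tgfbr2 (3.33 ± 0.37, adjusted p = 4.9e-09) and Fstl1 (3.41 ± 0.41, adjusted p = 2.0e-08). Macrophage and leukocyte markers averaged 11.34 in adults, with 14 of 15 above 100 in every array, and 7.72 at P15, with 9 to 14 above 100. Replicate 1 of P15 had the highest level of that stage for this list (9.22), and also for the acinar (14.29, others 10.96 to 11.75), mesenchymal (7.60, others 5.69 to 6.04) and endothelial lists (6.99, others 5.34 to 6.31). Of the 5 genes called, Tgfb2 and Tgfb3 were highest of P15 in that array, while Tgfb1, Bmp2 and Gdf3 were not. Other lists differed between the stages too. The 7 progenitor and duct markers averaged 9.99 in adults and 8.45 at P15, and the acinar list 14.01 and 12.17. For the mesenchymal list the means were 7.68 and 6.29, and for the endothelial list 5.89 and 6.02. The part of these lists was not tested.

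Set as postnatal (P15 and adult) against fetal (E15.5, E17.5 and P0) beta cells, with each population weighted equally, 8 of the 10 genes were called, Gdf3 higher and 7 lower, where 19.6% of all probes were called. Because the stages within each side differed so much, the arrays of both sides overlapped for 7 of these 8 genes. Inhbb alone did not overlap (-2.07 ± 0.21, adjusted p = 4.9e-11). Gdf3 differed by 3.64 ± 0.21 (12.4-fold, adjusted p = 6.8e-18) and Bmp4 by -2.29 ± 0.18 (4.88-fold, adjusted p = 1.6e-13). The mesenchymal list averaged 6.29 and 7.68 in the postnatal populations, against 9.79 to 12.26 in the fetal ones, and the endothelial list 6.02 and 5.89, against 6.52 to 10.83, with their part not tested. The called pathway genes were lower for 1 of 6 other ligands, 1 of 7 type I receptors, 1 of 5 type II receptors, 2 of 5 coreceptors, 2 of 7 Smads and 4 of 12 response genes, and of 15 antagonists 1 was higher and 7 were lower. Over the 10 genes the median absolute difference was 1.44, against 0.45 over all probes. In the methods' t-test over arrays Tgfb3 and Bmp2 missed the threshold (adjusted p = 0.14 and 0.097).

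In adult against P0 alpha cells 5 of the 10 genes were called, all lower (Tgfb2, Tgfb3, Bmp4, Bmp7 and Inhbb), where 20.8% of all probes were called. The median absolute difference was 1.01, against 0.50 over all probes. Without P0 alpha replicate 1, 3 of the 10 genes were called. The Bmp7 call held for its first probe only, since the second differed by -0.28 (adjusted p = 0.50). Of 15 antagonists 8 fell and of 12 response genes 7 fell, and none of either group rose. Fstl1 (4.88, against 11.96; -7.08 ± 0.39, adjusted p = 5.4e-18), Tgfbr2 (-5.49 ± 0.35, adjusted p = 5.8e-16) and Pmepa1 (-3.59 ± 0.22, adjusted p = 1.3e-16) were among them. Lefty1, an inhibitor of Nodal (1.70 ± 0.29, adjusted p = 5.4e-06), and Inha (1.30 ± 0.16, adjusted p = 1.5e-08) rose. With these, 2 of 6 other ligands rose and 1 fell. Of 7 type I receptors 1 rose and 1 fell, of 5 coreceptors 2 rose and 2 fell, and 1 of 5 type II receptors and 2 of 7 Smads fell. The mesenchymal list averaged 5.75 in adult and 10.96 in P0 alpha cells and the endothelial list 5.46 and 9.40, and their part was not tested.

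The change from P0 to adult was then compared between alpha and beta cells, and here the adjusted p alone made a call. Of the 10 genes 7 were called, 4 higher and 3 lower in alpha than in beta cells, where 34.7% of all probes were called. The median absolute difference was 1.48, against 0.54 over all probes. Gdf3 changed by -0.97 in alpha cells and by 2.77 in beta cells (difference -3.74 ± 0.44, adjusted p = 2.5e-08). The alpha cell change alone was not called, and Gdf3 exceeded 100 in 1 P0 alpha array and in no adult alpha array. Bmp4 changed by -1.05 in alpha cells and by -3.42 in beta cells (2.37 ± 0.39, adjusted p = 1.2e-05), and Inhba by -0.19 and -2.09 (1.90 ± 0.53, adjusted p = 0.0045). Tgfb2 changed by -1.19 in alpha cells and by -0.00 in beta cells (adjusted p = 0.0091), where the value at P15 lay far lower than both ends, and with the mean over its probes the difference was -0.63 (adjusted p = 0.079). The Fst difference (1.55 ± 0.30, adjusted p = 9.1e-05) was 0.92 with the other probe (adjusted p = 0.32). The Bmp7 difference (-1.49 ± 0.43, adjusted p = 0.0059) was 1.47 with the other probe (adjusted p = 0.023), so its direction turned with the probe. Pathway genes with large differences were Tgfbi (-5.06 ± 0.69, adjusted p = 3.5e-07), Id3 (4.41 ± 0.43, adjusted p = 3.4e-10) and Pmepa1 (-4.10 ± 0.33, adjusted p = 4.7e-12). In alpha cells the macrophage and leukocyte list averaged 5.82 in adults and 7.78 at P0, the mesenchymal list 5.75 and 10.96 and the endothelial list 5.46 and 9.40. In beta cells these lists averaged 11.34 in adults and 10.01 at P0, 7.68 and 12.26, and 5.89 and 10.83. Their part was not tested. Of the pathway groups, 1 of 6 other ligands was called higher in alpha than in beta cells, and there were 2 higher and 1 lower of 7 type I receptors, 1 and 1 of 5 type II receptors, 3 and 1 of 5 coreceptors, 1 and 3 of 7 Smads, 4 and 3 of 15 antagonists and 3 and 4 of 12 response genes.

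Between the islet cell types, 6 of the 10 genes were called in P0 beta against P0 alpha cells, where 19.8% of all probes were called. Tgfb1, Tgfb3, Bmp4, Gdf3 and Inhba were higher in beta cells and Tgfb2 was lower. Fst (0.99 ± 0.22, adjusted p = 0.00040) and Bmp7 (-0.93 ± 0.32, adjusted p = 0.016) were just under 2-fold. The second Bmp7 probe ran the other way, at 7.18 in P0 beta and 5.26 in P0 alpha cells (1.92 ± 0.38, adjusted p = 8.3e-05). Over the 10 genes the median absolute difference was 1.36, against 0.50 over all probes. Of 15 antagonists 8 were higher in beta cells and 1 lower, 4 of 12 response genes were higher, and so were 2 each of the other ligands, type I receptors, type II receptors and coreceptors, while of 7 Smads 1 was higher and 1 lower. Ltbp4 was higher in P0 beta cells by 3.56 ± 0.31 (adjusted p = 1.5e-11) and Id3 by 2.84 ± 0.32 (adjusted p = 5.0e-09). Marker lists of other cells were higher too, the mesenchymal list at 12.26 in beta and 10.96 in alpha cells and the macrophage and leukocyte list at 10.01 and 7.78. The endothelial list averaged 10.83 and 9.40 and the acinar list 13.48 and 11.97, while the delta and PP cell list was lower in beta cells (12.53 and 13.12). The part of these lists was not tested.

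In adult beta against adult alpha cells 3 of the 10 genes were called, all higher (Tgfb1, Tgfb3 and Gdf3), where 17.3% of all probes were called, and the median absolute differences were 0.56 and 0.41. Of 15 antagonists 6 were higher in beta cells and none lower. Ltbp2, a latent TGF-beta binding protein, was 8.04 in adult beta and 5.07 in adult alpha cells (2.97 ± 0.31, adjusted p = 3.0e-10). Tgfbi (6.35 ± 0.45, adjusted p = 1.2e-14) and Pmepa1 (4.23 ± 0.22, adjusted p = 1.2e-18) were higher as well, and Bmpr1b, a type I BMP receptor, was lower (-2.01 ± 0.24, adjusted p = 6.2e-09). Of 7 type I receptors 2 were higher and 1 lower, of 12 response genes 3 were higher and 2 lower, 2 of 5 coreceptors were lower, 1 other ligand and 1 type II receptor were higher, and no Smad was called. The macrophage and leukocyte list averaged 11.34 in adult beta and 5.82 in adult alpha cells, and its part in these differences was not tested.

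In duct against adult beta cells 7 of the 10 genes were called, 6 higher (Tgfb2, Tgfb3, Bmp2, Bmp7, Inhba and Inhbb) and Gdf3 lower, where 32.3% of all probes were called. Over the 10 genes the median absolute difference was 2.51, against 0.62 over all probes. The macrophage and leukocyte list was high in both populations, at 11.17 to 12.27 over the duct arrays and 10.98 to 11.69 over the adult beta arrays. Bmp6, another BMP ligand, was likewise higher in duct cells (10.04, against 6.77; 3.27 ± 0.25, adjusted p = 1.8e-14). Acvr1c was at 5.01 in duct and 10.42 in adult beta cells (-5.41 ± 0.26, adjusted p = 2.9e-20), and Inha was lower (-2.82 ± 0.17, adjusted p = 2.5e-17). Of 7 Smads 3 were higher, led by Smad3 (2.18 ± 0.16, adjusted p = 9.5e-15). Of 12 response genes 7 were higher, led by Tgif1 (4.93 ± 0.30, adjusted p = 3.4e-17), and 1 was lower, Id4 (-2.80 ± 0.29, adjusted p = 6.9e-11). Of 15 antagonists 5 were higher and 2 lower, of 6 other ligands 1 was higher and 2 lower, of 5 coreceptors 1 was higher and 1 lower, 1 of 5 type II receptors was higher and 1 of 7 type I receptors was lower.

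In duct cells against E15.5 progenitors 6 of the 10 genes were called, 5 higher (Tgfb1, Tgfb2, Tgfb3, Bmp2 and Inhba) and Bmp7 lower, where 33.4% of all probes were called. The median absolute difference was 1.80, against 0.65 over all probes. Bmp6 was again higher in duct cells (4.60 ± 0.27, adjusted p = 1.7e-17), and Chrdl1 was lower (5.18, against 9.56; -4.39 ± 0.37, adjusted p = 6.2e-13). The inhibitory Smad7 was higher by 2.04 ± 0.28 (adjusted p = 8.4e-08) and Smad6 was lower, at 5.94 in duct cells and 7.44 in E15.5 progenitors (adjusted p = 2.1e-05). Of 12 response genes 5 were higher and 4 lower, with Tgfbi at 6.33 ± 0.52 (adjusted p = 2.1e-13) and Id1 at -3.06 ± 0.34 (adjusted p = 6.8e-10). Of 6 other ligands 1 was higher and 3 lower, of 7 type I receptors 1 was higher and 2 lower, of 15 antagonists 2 were higher and 2 lower, and the type II receptors, coreceptors and Smads each had 1 higher and 1 lower. The macrophage and leukocyte list averaged 11.75 in duct cells and 5.86 in E15.5 progenitors, and its part was not tested.

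Ranked by mean, neighboring populations mostly overlapped, as did 12 of 12 neighbor pairs for Inhba, 11 of 12 each for Tgfb1, Bmp7, Inhbb and Fst, 10 of 12 each for Bmp4 and Gdf3, 9 of 12 each for Tgfb3 and Bmp2 and 8 of 12 for Tgfb2. Among the 10 genes themselves, the population means of Tgfb3 followed those of Bmp2 (Pearson's r = 0.866 over 13 populations) and Tgfb1 (r = 0.771). Gdf3 ran against Bmp7 (r = -0.594). These correlations are descriptions over populations that share sorting schemes and other-cell marker levels.

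Over the same 13 population means, the genes most like each ligand among 14404 others were listed by Pearson's r. Arhgap25 (0.986), Arhgdib (0.957) and Sp100 (0.956) were most like Tgfb1, and Arhgdib is a gene of blood cells. Prkg1 (0.890), Hspb8 (0.862) and Ccser2 (0.832) were most like Tgfb2, whose best match was the weakest of the 10. Smagp (0.970), Dennd2c (0.948) and Dnase1l1 (0.944) were most like Tgfb3. Alb (0.938), Cd209f (0.914) and Cass4 (0.911) were most like Bmp2. Gm15050 (0.944), Ptgis (0.936) and Mapk12 (0.930) were most like Bmp4, and Homer2 (0.974), Nasp (0.962) and Cenpl (0.958) were most like Bmp7. Nasp and Cenpl are genes of dividing cells. Ltbp2 (0.962), B830017H08Rik (0.952) and Angptl7 (0.951) were most like Gdf3. Sncg (0.946), Tppp (0.945) and Plxna4 (0.938) were most like Inhba, and Spink4 (0.923), Als2cl (0.877) and Tmem229a (0.873) were most like Inhbb. Nts (0.941), Lmod1 (0.911) and Grem1 (0.908) were most like Fst, and Grem1 encodes a BMP antagonist. Fst was read here from the probe that exceeded 100 in only 3 arrays, and its other probe, with a different profile, was not ranked.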

How the data were processed

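RNA of the sorted cells was amplified and hybridized by the authors to Affymetrix mouse genome arrays. The deposited values are log2 expression per probe, normalized by the authors with RMA in R 2.11.1 (per the labels and methods), and were used as given, with 1 column per array and no missing value. Intensities before RMA were not used here. Probes were named by the platform annotation: 34958 of 45101 probes carried 1 gene and 932 several, which were left out of gene names. Probes above 100 on the linear scale in at least 1 array (32078) were fitted with limma 3.58.1 in R 4.3.3 (lmFit and eBayes, 1 mean per population, 35 residual degrees of freedom), with Benjamini-Hochberg adjustment over all 32078 probes for each comparison. A call needed an adjusted p under 0.05 and a 2-fold difference. Values near or under 100 are low on these arrays, so folds from them are inexact. The number of arrays limits the precision. Each p-value of the limma fit rests on 1 estimate per probe of the spread between arrays within populations, shared by all populations. It is not the spread of the compared populations alone.

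The 10 genes, pathway lists and marker lists were chosen with earlier results of these data known. The text names all 10 genes, up to 3 called genes of largest difference per pathway list and comparison, and the 3 genes most alike to each of the 10. Other probes of the 10 genes were shown after their values were seen. Replicate numbers were checked for pairing by whether every same-numbered pair of arrays deviated together with r over 0.1. This held between E15.5 and E11.5 progenitors (0.106 to 0.148 over 3 pairs), which came from different embryos and reporter lines. The reported fit used no pairing, and a replicate block was an alternative only. All pairs were also above 0, but not all over 0.1, for endocrine against E15.5 progenitors (0.0523 to 0.302) and for adult against P0 alpha cells (0.0129 to 0.265). What a replicate number marks is not given in the labels. Alternatives were no filter, a stricter filter, array weights, a second quantile normalization, fits of the populations compared alone, a replicate block, the mean over a gene's probes, the methods' t-test, and each array left out. The probe with the highest single value was added after seeing the data. The scripts were tested on simulated data. Promoter windows came from RefSeq (GRCm38.p6).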

Additional observations from a re-analysis of the deposited data

Results flagged for a closer look

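Of 80 groups of 4 or 5 arrays, 8 held an array far from the others, and chance alone gives about 1 in 20 such groups. Tgfb2 read 6.23 in Neurog3-null replicate 1, where the others read 6.55 to 6.60. Tgfb3 read 5.41 in E15.5 beta replicate 2 (others 5.74 to 5.77). Bmp4 read 6.75 in E11.5 progenitor replicate 4 (others 7.03 to 7.06), 6.58 in P0 alpha replicate 1 (others 4.82 to 4.98) and 4.47 in adult alpha replicate 1 (others 4.16 to 4.24). Bmp7 read 6.64 in E15.5 beta replicate 4 (others 7.12 to 7.16) and 4.90 in adult beta replicate 4 (others 6.22 to 6.34). Inhbb read 4.60 in adult beta replicate 4 (others 5.22 to 5.26). P0 alpha replicate 1 also had the highest endothelial (10.39), mesenchymal (11.51), macrophage and leukocyte (8.29) and acinar (13.01) marker levels of the P0 alpha arrays, whose part was not tested.

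The change from P0 to adult differed between alpha and beta cells for 7 of the 10 genes by the interaction term of the limma fit. The differences on the log2 scale were -1.19 for Tgfb2, 1.48 for Bmp2, 2.37 for Bmp4, -1.49 for Bmp7, -3.74 for Gdf3, 1.90 for Inhba and 1.55 for Fst, with adjusted p-values between 2.5e-08 and 0.0091. For 3 of them the call depended on the probe. Bmp7 turned to 1.47 with another probe (adjusted p = 0.023) and to 0.25 with the mean over its probes (adjusted p = 0.60), Fst was at 0.92 with another probe (adjusted p = 0.32), and Tgfb2 was at -0.63 with the mean over its probes (adjusted p = 0.079). No direction is given for Bmp7. Gdf3 rose by 2.77 in beta cells. Its change of -0.97 in alpha cells was not called, and the arrays of P0 (5.03 to 6.76) and adult alpha cells (4.78 to 5.27) overlapped. With the second Gdf3 probe the means were 4.25 in P0 and 4.47 in adult alpha cells, so no direction is given for alpha cells.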

How the results depend on the processing

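All 15 counts of called genes and all 81 single results kept their direction and their call with no filter, a second quantile normalization, fits of the populations compared alone and a replicate block. With the replicate block the fit called 3 of the 10 genes in E15.5 against E11.5 progenitors, as without it, and it changed no other call. The stricter filter asked for more than 100 in every array of at least 1 population, and all 74 single results tested there kept their call. Inhba was not tested under it, since no population had Inhba above 100 in every array. Under array weights, 3 genes were called in adult against P0 alpha cells (Tgfb2 at -0.95 and Bmp4 at -0.93 were no longer 2-fold). With the mean over each gene's probes, 4 genes were called for the change in alpha against beta cells, and Bmp7 turned to 0.25 (adjusted p = 0.60). Inhba was not tested in that setting, since its mean over probes did not pass the filter, and Gdf3 in Neurog3-null cells (0.78), Bmp7 in E15.5 beta cells (-0.75) and Inhbb in adult alpha cells (-0.75) and postnatal beta cells (-0.96) were no longer 2-fold. With the probe of highest single value it turned to 1.47 (adjusted p = 0.023). The methods' t-test called 1 gene in endocrine against E15.5 progenitors, having lost Tgfb3 (adjusted p = 0.058). It lost 6 other calls, with adjusted p-values of 0.18 for Tgfb1 in acinar cells, 0.068 for Gdf3 in Neurog3-null cells, 0.087 for Bmp7 in P15 against P0 beta cells, 0.067 for Bmp4 in adult against P0 alpha cells, and 0.14 and 0.097 for Tgfb3 and Bmp2 in postnatal against fetal beta cells. Leaving out each array in turn gave 2 to 4 genes in acinar cells, 2 to 3 in endocrine progenitors, 6 to 7 in Neurog3-null cells, 2 to 3 in E15.5 beta cells, 3 to 6 in adult against P0 alpha cells, 6 to 8 in P0 beta against P0 alpha cells and 6 to 7 for the change in alpha against beta cells, with the other 8 counts unchanged. The lower end of 3 in alpha cells came without P0 alpha replicate 1. Of 741 single results with an array left out, 731 kept their call and 10 lost it. Among the calls lost were Tgfb1 in acinar cells and Gdf3 in Neurog3-null cells, which were under 100 in both populations compared, and low signal limits them.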
